A study of Oryza sativa with 36 samples.

Results

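The loci described here are a list of 45 nuclear photosynthesis genes of rice (Oryza sativa), out of 55801 loci in the count table. The list was chosen by gene identity: it was put together as light-harvesting proteins, photosystem subunits, electron carriers, the chloroplast ATP synthase, the small subunit of Rubisco, Rubisco activase and enzymes of the Calvin cycle. Its members were taken by their locus identifiers, and all 45 are rows of the table. The table pairs no identifier with a gene name, and none of the 45 matched the reference gene table (0 matched), so the make-up of the list could not be checked against an annotation and no role is printed for a single locus. The loci are therefore called by identifier, and what they do is described for the list as a whole.

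Light-harvesting proteins bind chlorophyll and pass light energy to the photosystems. The photosystems drive electrons through soluble and membrane-bound carriers, and the proton gradient that results powers the chloroplast ATP synthase. Rubisco, with its nuclear-encoded small subunit, fixes carbon dioxide in the Calvin cycle, and Rubisco activase keeps it active. In green leaves these genes are among the most highly transcribed nuclear genes, their transcripts rise when plastids turn into chloroplasts, and meristem cells hold undifferentiated proplastids. Their summed level is therefore used as a readout of greening or of leaf tissue in a dissected sample.

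Expression was measured by CEL-Seq2, in which the 3' end of a transcript is tagged with a unique molecular identifier (UMI), so that the counts are of molecules. The 35 libraries came from Takanari, a high-yielding indica rice (17 libraries), and from NIL-MP3, whose name marks a near-isogenic line (18 libraries). The labels say no more of it; from general knowledge, the locus MP3 lies on chromosome 3 and acts on panicle number. Plants of both cultivars were grown in chambers in short days, with the 10 h light period held at 27 °C and the 14 h dark period at 25 °C, and libraries started from 100 pg of RNA with 11 to 15 cycles of PCR. Each cultivar was sampled at tissues labelled AM1 to AM5 and SAM. Every group of cultivar and tissue had 3 libraries except Takanari SAM, which had 2. The labels do not spell these names out, call all of them axillary meristems, give no age and leave unsaid if replicates were separate plants. The p-values therefore reflect only how far these samples spread, and that spread may be technical. No leaf library was among them.

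Library totals ran from 77362 to 224706 counts with a median of 143050, and 24225 loci had a count. In the 18 libraries of AM2, AM3 and AM4 the mean total was 150431 (SD 21035), against 120545 (SD 27386) in the 12 libraries of AM1 and AM5. Markers of meristem and leaf primordium were not examined, because the table does not name them. One library stood apart for the list: Takanari AM2 replicate 4, whose values are given below with each result that rests on it.

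The photosynthesis loci were lowly counted in every sample. Together they held 2486 of 4971600 counts, or 0.050%, and from 0.0275% to 0.102% of a single library. Of the 45 loci, 43 had at least 1 count in the 35 libraries, 7 had 100 or more, 31 had 10 to 99 and 5 had fewer than 10. The median total over the 43 was 40 counts per locus, against 57 for all loci with a count. In CPM (counts scaled by library size), the median of the 43 loci was a mean of 7.87 CPM, against 11.5 CPM for all loci with a count, and 15 of the 43 lay above that. No member ranked higher than the 80.1st percentile of loci with a count. LOC_Os01g64960 and LOC_Os11g47970 had 0 counts in all libraries, which allows up to 0.600 CPM over the 35 libraries by counting error alone. At this depth a member was seen in a median of 19 of the 35 libraries, and only LOC_Os05g41640 had a count in all 35.

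The 4 loci with the highest mean level were LOC_Os07g32880 (246 counts, 47.3 CPM), LOC_Os09g17740 (225 counts, 43.4 CPM), LOC_Os05g41640 (209 counts, 42.0 CPM) and LOC_Os04g33830 (168 counts, 33.5 CPM). They held 34.1% of the counts of the list. They were also the only 4 members to pass the filter on low counts that the main test applied, so the other 39 members with a count were tested in a second fit without the filter. The plot of all members by library shows how sparse the lower rows are.

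**Figure D1:**
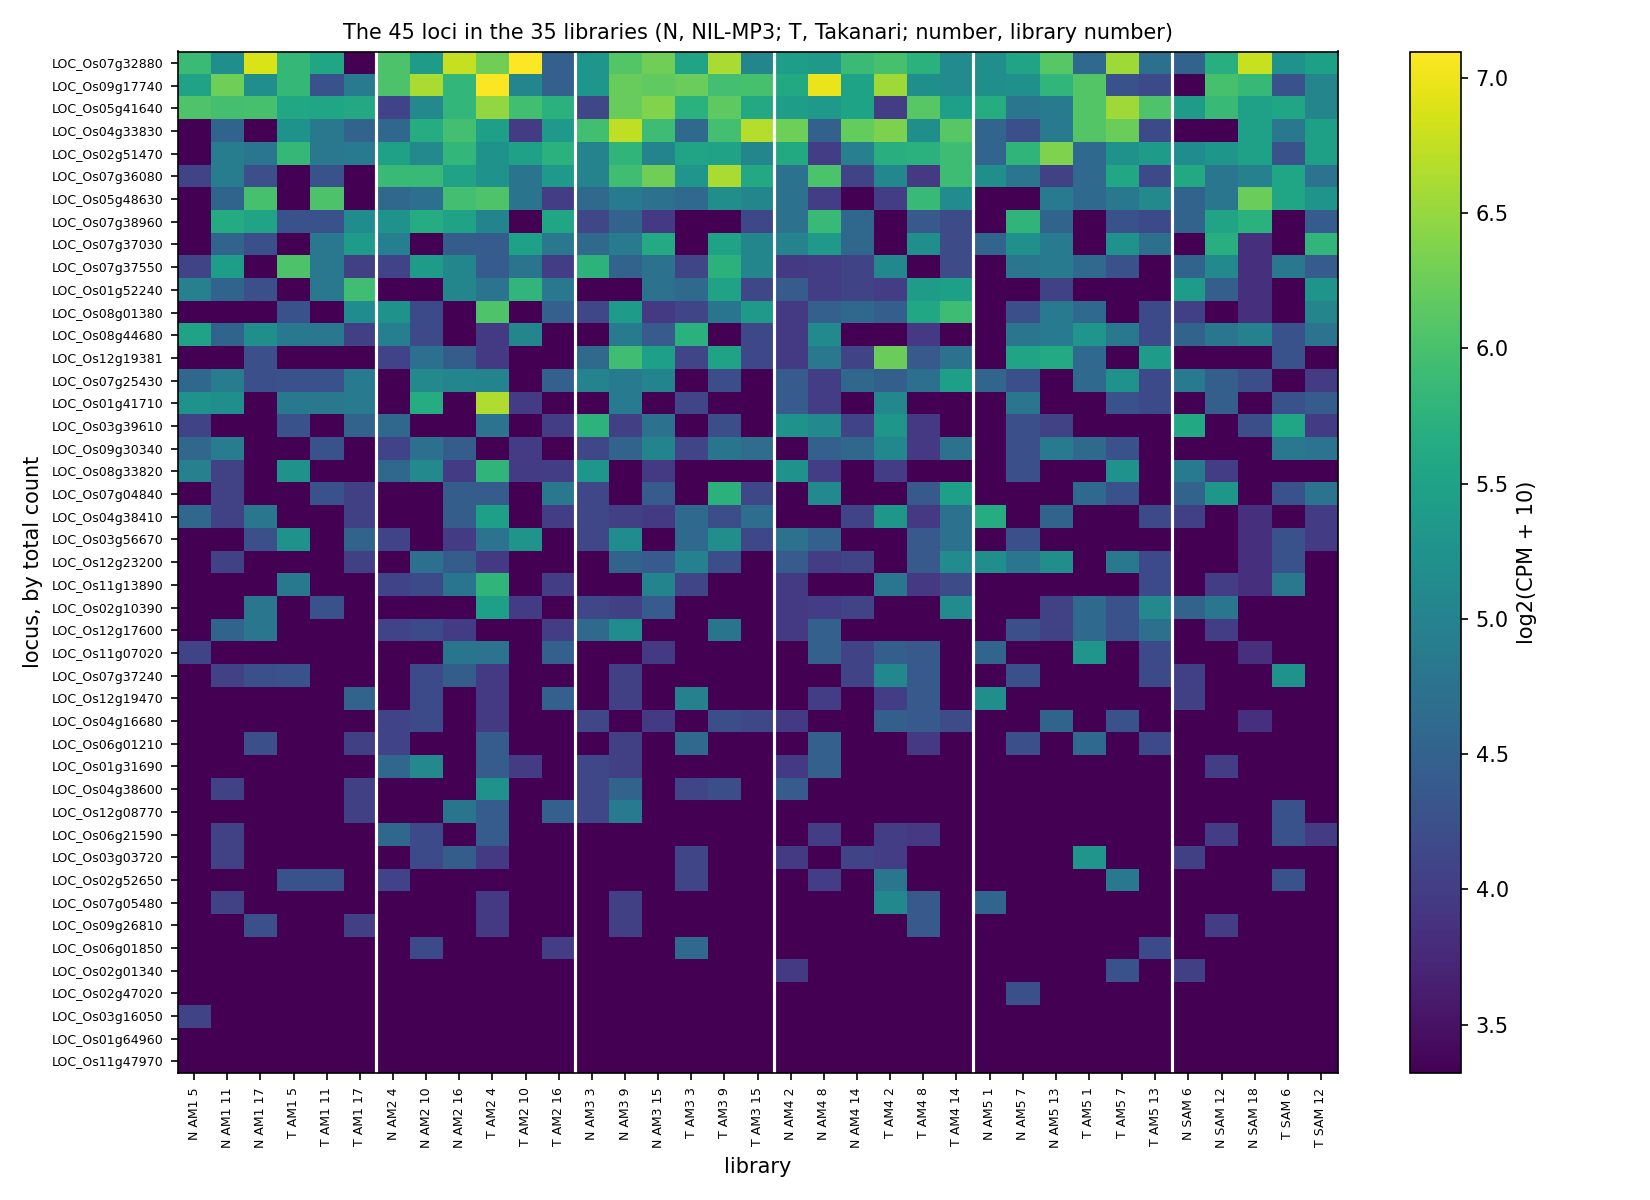
Level of the 45 loci (rows, ordered by total count) in the 35 libraries (columns, grouped by tissue label with white lines between tissues; N, NIL-MP3; T, Takanari), as log2(CPM + 10). The upper 7 rows, each with 100 or more counts, carry most of the signal, the lowest 2 rows are at 0, and the Takanari AM2 library with number 4 has a count in 36 of the loci.

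Summed over the list, the mean level was higher in AM2, AM3 and AM4 than in AM1, AM5 and SAM, with wide overlap between tissues; the order among AM2, AM3 and AM4 rested on 1 library. The summed level was 396 ± 63.7 CPM in AM1 and 423 ± 93.4 CPM in AM5. It was 585 ± 225 CPM in AM2, 579 ± 144 CPM in AM3 and 527 ± 103 CPM in AM4 (SD, n = 6 each). SAM had 408 ± 52.4 CPM (SD, n = 5). In these bulk samples fewer cells of a type and less RNA per cell cannot be told apart. AM1 libraries ran from 325 to 467 CPM with a median of 396. AM2 libraries ran from 374 to 996 with a median of 522, and AM3 libraries from 445 to 755 with a median of 547. AM4 libraries ran from 356 to 649 with a median of 548, and AM5 libraries from 296 to 554 with a median of 437. The 5 SAM libraries had 336, 380, 406, 452 and 464 CPM. Every tissue overlapped with every other, and the steps from AM2 to AM3, from AM3 to AM4 and from AM5 to SAM were smaller than the SD within either tissue.

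The highest library was Takanari AM2 replicate 4, with 996 CPM from 176 counts (95% Poisson interval 855 to 1155 CPM, counting error only). The other Takanari AM2 libraries had 456 CPM (replicate 10) and 374 CPM (replicate 16), and the next highest library of any group, NIL-MP3 AM3 replicate 9, had 755 CPM. In replicate 4 a count was found for 36 of the 45 loci, against 13 to 30 in the other libraries. It was the highest library for 7 members, while no other library was highest for more than 3. LOC_Os09g17740 had 125 CPM (22 counts) there and 23.1 and 12.3 CPM in the other Takanari AM2 libraries. Chosen after their values were seen, LOC_Os01g41710 had 90.6 CPM against 5.77 and 0, LOC_Os08g01380 had 56.6 CPM against 0 and 12.3, and LOC_Os11g13890 had 45.3 CPM against 0 and 6.14. Of the members, 24 were above both other replicates and 10 were at or below both. Some of the 24 had a single count against 0 in both others, as LOC_Os07g37240 did. Some of the 10 were at 0 in all of these replicates, as LOC_Os02g52650 was. The share of all loci above both, or highest in replicate 4, was not counted, so these numbers cannot be set beside it. Without replicate 4 AM2 had 503 ± 112 CPM (SD, n = 5), below the means of AM3 (579 CPM) and AM4 (527 CPM).

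**Figure D2:**
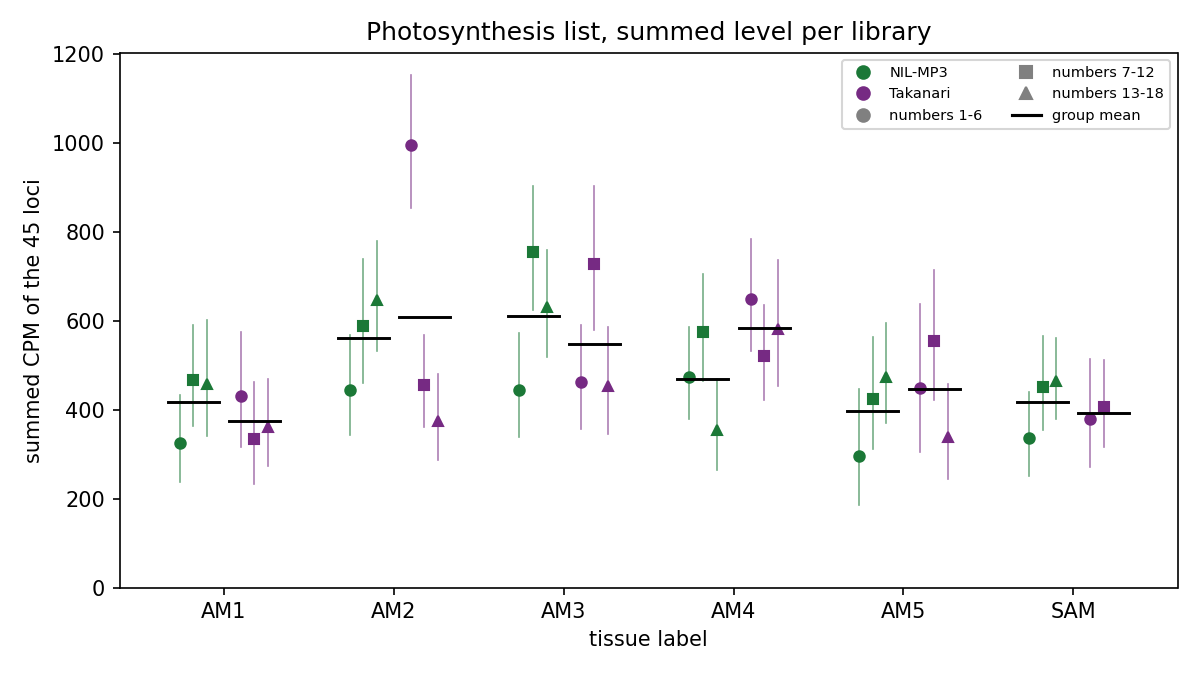
Summed level of the 45 loci in each library, in CPM on a linear axis from 0, by tissue label. Colour gives the cultivar, marker shape the run of library numbers, vertical lines the 95% Poisson interval (counting error only) and black bars the mean of each cultivar and tissue; the AM2 library at 996 CPM stands above all others, and the means of AM1, AM5 and SAM lie between 376 and 448 CPM in both cultivars.

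The same shape, higher in the middle of the AM series than at its ends, was seen in both cultivars and in most runs of library numbers. The libraries of a cultivar are numbered from 1 to 18, and each run of 6 numbers (a set) holds every tissue once, except that the last Takanari set has no SAM library here. In 6 of 6 sets the highest AM library was in AM2, AM3 or AM4. In 5 of 6 sets the lowest AM library was in AM1 or AM5, the exception being NIL-MP3 numbers 13 to 18, where AM4 was lowest at 356 CPM. The mean of AM2 to AM4 divided by that of AM1 and AM5 was 1.46, 1.43 and 1.17 in the NIL-MP3 sets and 1.60, 1.28 and 1.34 in the Takanari sets. Over all libraries it was 564 ± 158 CPM (SD, n = 18) against 410 ± 77.4 CPM (SD, n = 12), a ratio of 1.38. Without Takanari AM2 replicate 4 the ratio was 1.31, with 538 ± 118 CPM (SD, n = 17) in AM2 to AM4. This grouping of tissues was chosen after the data were seen, and the summed level was given no test.

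The pattern did not rest on the loci with most counts alone. Without the 4 highest members the summed level was 259 ± 44.6 CPM in AM1 and 279 ± 56.3 CPM in AM5, against 389 ± 161, 366 ± 92.3 and 349 ± 101 CPM in AM2, AM3 and AM4 (SD, n = 6 each). In SAM it was 285 ± 22.5 CPM (SD, n = 5). The AM2 value included 691 CPM in Takanari AM2 replicate 4, and without that library it was 329 ± 71.7 CPM (SD, n = 5), below AM3 and AM4 and above AM1 and AM5. Of the 43 members with a count, 30 (69.8%) had a higher mean CPM in AM2 to AM4 than in AM1 and AM5. The share of all loci with a count was 48.4%, and without Takanari AM2 replicate 4 there were 28 such members. Because the grouping was chosen after the data were seen, a majority in this direction was likely from the start and is no support for the pattern. The number of members with a count followed the same order, 25.1 ± 4.46 per library in AM2 to AM4 (SD, n = 18) and 19.8 ± 3.57 in AM1 and AM5 (SD, n = 12), but so did library size, and the part of depth in this number was not tested. Within groups of cultivar and tissue the summed level varied by a pooled SD of 140 CPM (101 CPM without Takanari AM2 replicate 4), while counting error alone gives 59.7 CPM.

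To ask which single loci differed between the middle and the ends, edgeR's quasi-likelihood test was fitted over all loci with 1 mean per group, with Benjamini-Hochberg adjustment. LOC_Os04g33830 had 0, 13.1 and 28.1 CPM (lowest, median and highest library) in AM1, and 5.77, 32.3 and 52.6 CPM in AM2. It had 14.5, 52.3 and 96.8 CPM in AM3, 12.3, 61.6 and 72.2 CPM in AM4 and 8.09, 16.6 and 65.7 CPM in AM5, and from 0 to 34.7 CPM in SAM. AM1 and AM5 both overlapped with the middle: libraries of AM2, AM3 and AM4 reached down to 5.77, 14.5 and 12.3 CPM, below the highest AM1 library (28.1 CPM). The highest AM5 libraries were Takanari replicates 1 (58.0 CPM) and 7 (65.7 CPM). Its fitted difference, AM2 to AM4 minus AM1 and AM5, was 1.44 ± 0.49 on the log2 scale (SE) among the loci past the filter. There edgeR's p was 0.00112 and its adjusted p 0.0637. When every locus with a count was tested the difference was 1.49 ± 0.43, with an edgeR p of 5.66e-05 and an adjusted p of 0.0176. The difference hardly moved between these fits while the unadjusted p fell, so the call depended on the fit. The cause of this shift was not tested. A fit with a replicate block for the set of 6 libraries changed the call among the loci past the filter, with a difference of 1.45 (edgeR adjusted p = 0.0245).

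LOC_Os07g36080 had 0, 8.04 and 20.0 CPM in AM1 and 17.3, 32.9 and 48.7 CPM in AM2. It had 22.2, 45.05 and 87.8 CPM in AM3, 5.37, 20.4 and 55.1 CPM in AM4, 6.57, 16.3 and 37.6 CPM in AM5 and 17.2 to 38.8 CPM in SAM. The lowest AM3 library (22.2 CPM) and the highest AM1 library (20.0 CPM) had 3 counts each, so they differed only by library scaling. AM1 was the only tissue with libraries at 0. It had too few counts for the filter. In the fit of every locus its difference was 1.71 ± 0.54 (SE). By edgeR's quasi-likelihood test its p was 6.68e-05 and its adjusted p 0.0194. The SE came from the fitted means and not from that test, and taken alone it gives weaker evidence than the p in that fit. In that fit 2 of 43 members were called higher in AM2 to AM4 and none (0) lower. Of the 24225 loci tested, 0.508% were called in either direction. This contrast was chosen after the data were seen, so the 2 calls are no separate support for the pattern. With the filter none of the 4 members tested was called (0, and 2 at an unadjusted p under 0.05), against 1.41% of 6943 loci. With the replicate block 1 of the 4, LOC_Os04g33830, was called. The share of all loci called with the block was not recorded, and the 1.41% is from the fit without it.

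Other members leaned the same way without passing the test. Without the filter 9 of 43 members (20.9%) had an unadjusted p under 0.05, against 7.23% of all loci. All 9 had a higher fitted level in AM2 to AM4. The median difference was 0.39 for the members and 0.06 for all loci (log2). The contrast was chosen after the data were seen, so these shares only describe the list and are no support for the pattern. LOC_Os09g17740 ran from 9.28 to 66.8 CPM in AM1 and from 8.09 to 58.0 CPM in AM5, against 12.3 to 125 CPM in AM2, 29.6 to 65.2 CPM in AM3 and 25.4 to 116 CPM in AM4. Its libraries overlapped throughout, and its difference was 0.89 ± 0.37 (SE, adjusted p = 0.238 by edgeR with the filter), or 0.63 without Takanari AM2 replicate 4. LOC_Os07g32880 and LOC_Os05g41640 had differences of 0.35 (95% interval -0.36 to 1.06) and -0.09 (-0.67 to 0.50). The sign of LOC_Os05g41640 was opposite to that of the other 3.

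The calls of LOC_Os04g33830 and LOC_Os07g36080 were close to the threshold and depended on single libraries. With every locus tested, that of LOC_Os04g33830 was lost without NIL-MP3 AM1 replicate 5 (edgeR adjusted p = 0.0632), Takanari AM5 replicate 13 (0.0631), Takanari AM3 replicate 15 (0.0584) or Takanari AM1 replicate 17 (0.0502). That of LOC_Os07g36080 was lost without NIL-MP3 AM5 replicate 13 (edgeR adjusted p = 0.0617), NIL-MP3 AM4 replicate 8 (0.0924), Takanari AM5 replicate 13 (0.0534), Takanari AM4 replicate 14 (0.0629), Takanari AM1 replicate 17 (0.0830) or Takanari AM1 replicate 5 (0.0541). Both kept their sign without any 1 library, and without Takanari AM2 replicate 4 their adjusted p-values were 0.0420 and 0.0260.

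**Figure D3:**
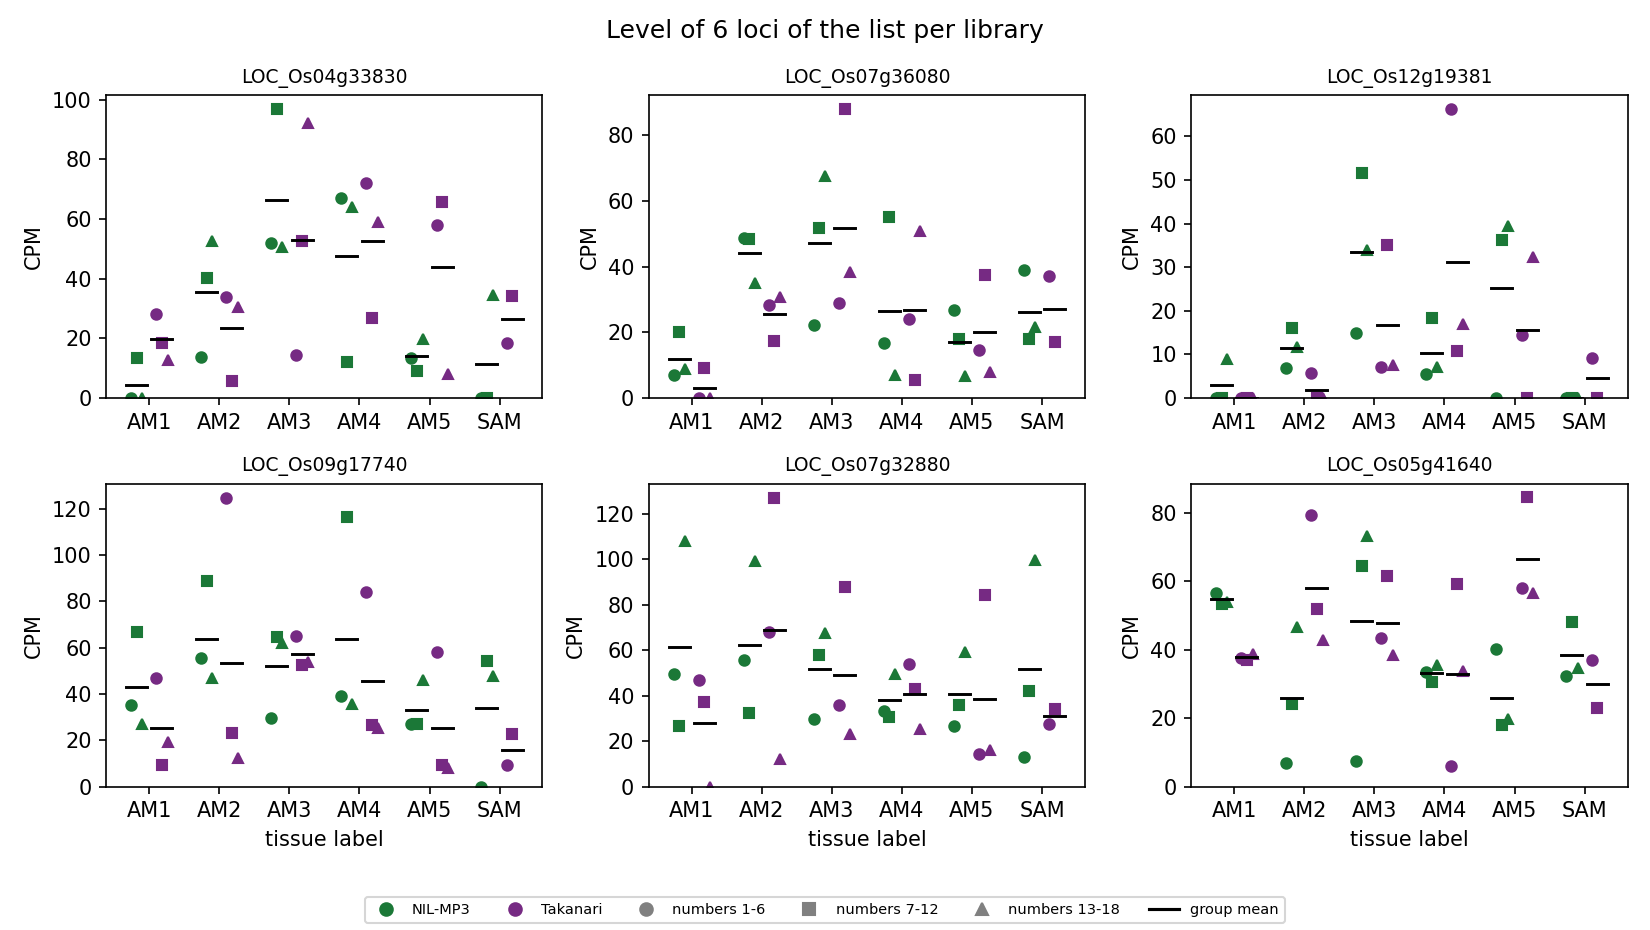
Level of 6 members in each library, in CPM on linear axes from 0 that differ between panels, by tissue label, with cultivar as colour, run of library numbers as marker and the mean of each cultivar and tissue as a black bar. LOC_Os04g33830 and LOC_Os07g36080 are low in AM1, LOC_Os12g19381 is at 0 in 5 of 6 AM1 libraries and 4 of 5 SAM libraries, and LOC_Os07g32880 and LOC_Os05g41640 show no steady order.

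The second question was whether the loci changed steadily along the AM label numbers. None of the 4 members past the filter had a slope that was called (0; 0 at an unadjusted p under 0.05), against 19.2% of 6943 loci. Their slopes per label number were 0.33 ± 0.18 for LOC_Os04g33830 (adjusted p = 0.165), -0.05 ± 0.10 for LOC_Os05g41640, -0.05 ± 0.13 for LOC_Os07g32880 and -0.06 ± 0.14 for LOC_Os09g17740 (log2, SE). The 95% intervals of the last 3 lay within -0.33 to 0.21. Without the AM5 libraries the slope of LOC_Os04g33830 over AM1 to AM4 was 0.78 (edgeR adjusted p = 0.00599). The share of all loci called in the fit without AM5 was not recorded, so this call cannot be set beside it. In the contrast of AM5 with AM1 no member past the filter was called either (0; 0 at an unadjusted p under 0.05), against 13.3% of loci. Of the 43 members with a count, 22 (51.2%) had a higher mean CPM in AM5 than in AM1 and 20 a lower one. Among all loci with a count 46.7% were higher in AM5.

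Without the filter 2 of 43 members had a slope past the threshold, 1 in each direction, against 5.49% of 24225 loci. LOC_Os12g19381 rose with the label number. It had 1 count in AM1, in NIL-MP3 replicate 17, and 0 in the other 5 libraries. It had 6 counts in AM2, then 22, 20 and 15 counts in AM3, AM4 and AM5, and again 1 count in SAM, in Takanari replicate 6. In CPM the lowest, median and highest AM2 libraries had 0, 6.31 and 16.1, and those of AM3 had 7.24, 24.3 and 51.6. In AM4 they had 5.58, 13.8 and 66.1 CPM, the highest being Takanari replicate 2 with 11 counts, and in AM5 they had 0, 23.4 and 39.4 CPM. All AM3 libraries and all AM4 libraries had a count, and the AM5 libraries at 0 were NIL-MP3 replicate 1 and Takanari replicate 7.

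Its slope was 0.90 ± 0.23 per label number (SE, adjusted p = 0.00387 by edgeR's quasi-likelihood test without the filter). Summed over libraries, its share of counts was higher in AM5 than in AM1 by a ratio of 17.7 (95% exact interval 2.72 to 743, counting error only) and higher than in SAM by 18.4 (2.84 to 777). The contrasts of AM5 with AM1 (adjusted p = 0.0275, where 1 of 43 members and 3.66% of loci were called) and with SAM (adjusted p = 0.0401, 1 of 43 members and 3.01% of loci) were also past the threshold. Fitted sizes of this locus depend on the prior count, because Takanari AM1 and NIL-MP3 SAM were at 0. Without Takanari AM5 replicate 13 the call of the slope was lost (slope 0.76, adjusted p = 0.150), and it held without any other single library. As its values show, it did not rise at every step: the counts per library were as high in AM3 as in AM5.

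LOC_Os01g52240, named after its values were seen, fell. It had 16, 18, 10 and 15 counts in AM1, AM2, AM3 and AM4 and 13 counts in SAM, but 1 count in AM5, in NIL-MP3 replicate 13. Its level in AM1 to AM4 was spread from 0 to 51.6 CPM, and AM5 stood apart only by its zeros. Its share of counts in AM1 to AM4 combined was higher than in AM5 by a ratio of 11.2 (95% exact interval 1.93 to 451, counting error only). The slope was -0.71 ± 0.24 (SE, adjusted p = 0.0484 by edgeR without the filter), and this call was lost when any of 19 of the 35 libraries was left out. The smallest adjusted p among these was 0.0503. Across the list 5 of 43 members (11.6%) had an unadjusted p under 0.05 for the slope, against 14.6% of all loci, and the median slope was -0.01 for the members and 0 for all loci.

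**Figure D4:**
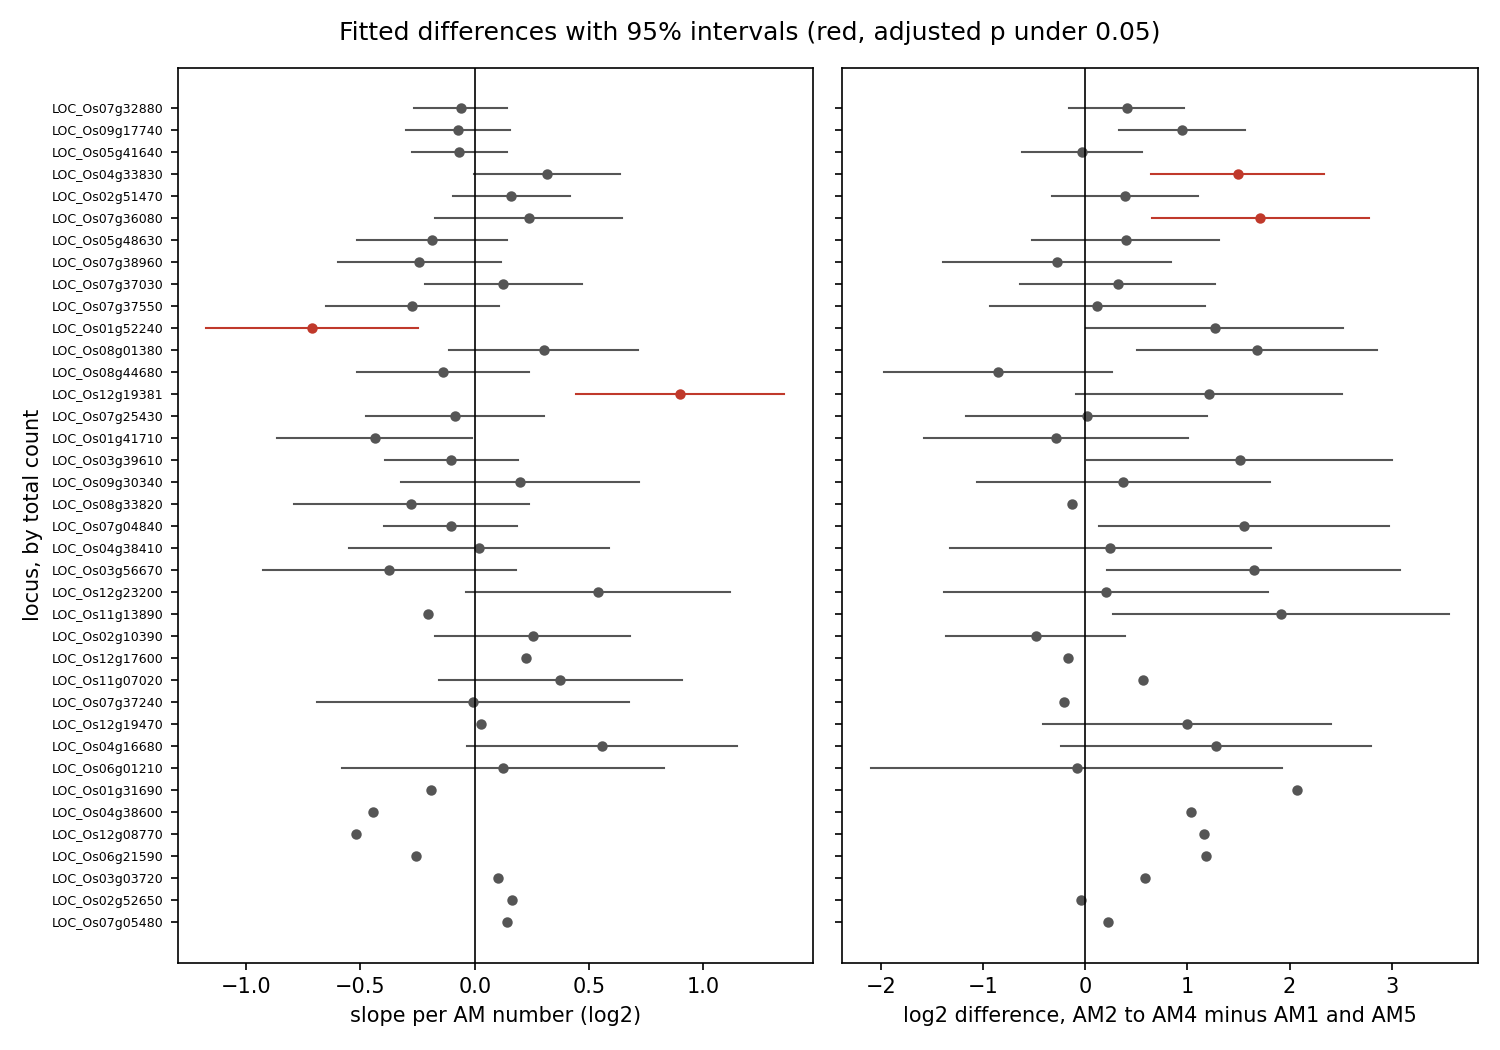
Fitted slope per AM label number (left) and difference of AM2 to AM4 from AM1 and AM5 (right), both on the log2 scale, for the 38 members with 10 or more counts, in the fit of every locus with a count. Bars are 95% intervals, left out where a group was at 0 and p was over 0.5; red marks the 2 members past an adjusted p of 0.05 in each panel, and points lie on both sides of 0 on the left and mostly above 0 on the right.

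The axillary series was then set against SAM. The mean summed level of AM1 to AM5 was 502 ± 151 CPM (SD, n = 30) and that of SAM 408 ± 52.4 CPM (SD, n = 5), a ratio of 1.23, with every SAM library inside the range of the AM libraries. Of the 43 members with a count, 33 (76.7%) had a higher mean CPM in AM1 to AM5 than in SAM, or 30 without Takanari AM2 replicate 4, against 60.2% of all loci. None of the 4 members past the filter was called for the mean of the AM groups minus SAM (0; 0 at an unadjusted p under 0.05), against 1.35% of loci. The differences were 0.79 ± 0.53 for LOC_Os09g17740 (adjusted p = 0.535), 0.57 ± 0.55 for LOC_Os04g33830, 0.31 ± 0.39 for LOC_Os05g41640 and 0.15 ± 0.45 for LOC_Os07g32880 (log2, SE, edgeR with the filter). LOC_Os09g17740 had 0, 9.26, 22.9, 47.7 and 54.2 CPM in the 5 SAM libraries and overlapped with each AM tissue. Without the filter none of 43 members was called (0; 1 at an unadjusted p under 0.05), against 0.64% of loci.

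Set against SAM one at a time, AM1, AM2, AM3, AM4 and AM5 gave no called member past the filter (0 of 4 in each), where 0.144%, 0.072%, 0.317%, 3.51% and 10.2% of loci were called. At an unadjusted p under 0.05 there was 1 of the 4 members in each of AM2, AM3 and AM4 and none (0) in AM1 and AM5. The shares of all loci at that unadjusted threshold were 6.45%, 10.9% and 17.2% in AM2, AM3 and AM4, and 6.93% and 22.3% in AM1 and AM5. Leaving out NIL-MP3 SAM replicate 18, the library with the highest total, gave 1 called member in AM3 and 1 in AM4. The share of all loci called in that fit was not recorded, so these counts cannot be set beside it. LOC_Os07g37030, a member with 90 counts, had from 0 to 45.8 CPM in SAM and means of 12.2 to 22.0 CPM in the 5 AM tissues, and its difference from SAM was -0.29 (95% interval -1.36 to 0.78, every locus tested).

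The third question was whether NIL-MP3 differed from Takanari. The summed level was 479 ± 121 CPM in NIL-MP3 (SD, n = 18) and 499 ± 169 CPM in Takanari (SD, n = 17), or 468 ± 113 CPM without Takanari AM2 replicate 4 (n = 16), so that this library decided which cultivar was higher. By tissue the NIL-MP3 and Takanari means were 417 and 376 CPM in AM1, and in AM2 561 and 609 CPM. They were 610.2 and 549 CPM in AM3, and in AM4 469 and 584 CPM. They were 398 and 448 CPM in AM5, and in SAM 417 and 393 CPM. In AM4 the NIL-MP3 libraries had 356, 475 and 576 CPM and the Takanari libraries 521, 583 and 649 CPM, and they overlapped, as the libraries of the 2 cultivars did in the other tissues. Of 43 members 17 (39.5%) had a higher mean CPM in NIL-MP3 and 26 in Takanari, where 49.7% of all loci with a count were higher in NIL-MP3. Without Takanari AM2 replicate 4 these numbers were 21 (48.8%) and 22, beside 49.8% of all loci.

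None of the 4 members past the filter was called between the cultivars over the 6 tissues (0; 0 at an unadjusted p under 0.05), against 1.3% of loci. The differences, NIL-MP3 minus Takanari, were -0.56 ± 0.40 for LOC_Os04g33830, -0.26 ± 0.26 for LOC_Os05g41640, 0.33 ± 0.31 for LOC_Os07g32880 and 0.52 ± 0.33 for LOC_Os09g17740 (log2, SE, edgeR). Their 95% intervals ran from -1.36 to 1.17 in all. LOC_Os05g41640 ran in AM1 from 53.4 to 56.6 CPM in NIL-MP3 and from 37.1 to 38.7 CPM in Takanari. These levels rest on 6 to 8 and 4 to 6 counts per library. How many of all loci are apart in this way with so few libraries was not counted. In AM5 it lay the other way, from 18.1 to 40.3 CPM in NIL-MP3 and from 56.6 to 84.5 CPM in Takanari, and the adjusted p-values of the AM1 and AM5 contrasts were not past the threshold. Over the 6 tissues, the tested members called in any single tissue numbered 0, and so did all 6943 loci (0% called).

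Without the filter none of 43 members was called between the cultivars (0; 5 at an unadjusted p under 0.05), against 0.59% of loci. The 5 members are 11.6% of the 43, and 8.11% of all loci had an unadjusted p under 0.05. The lowest p, 0.00167, belonged to LOC_Os07g38960, named after its values were seen, with 67 counts in NIL-MP3 and 24 in Takanari and a difference of 1.403 ± 0.52 (SE, adjusted p = 0.142 by edgeR). In the test of whether the slope differed between the cultivars, none of the 4 members past the filter was called (0; 0 at an unadjusted p under 0.05), and 0% of loci were. The difference in slope was 0.0011 (95% interval -0.73 to 0.73) for LOC_Os04g33830, whose slopes were 0.33 ± 0.31 in NIL-MP3 and 0.33 ± 0.20 in Takanari. For LOC_Os12g19381, in the fit of every locus, the slope in Takanari (1.20 ± 0.37) was past the threshold (adjusted p = 0.0426, 1 of 43 members and 2.96% of loci) and that in NIL-MP3 (0.60, adjusted p = 0.473, where 1.4% of loci were called) was not. Their difference did not pass the test (-0.60 ± 0.47, unadjusted p = 0.201 by edgeR, and 0% of loci were called).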

How the data were processed

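The authors deposited counts of molecules (UMIs) per locus for 35 rice CEL-Seq2 libraries, as raw whole numbers. The tools recorded per the submitters' processing notes are Bowtie2 and Subread 2.1, with no role stated. Nothing used here states the genome build, the annotation or the treatment of reads shared by near-identical loci, and light-harvesting genes and genes of the Rubisco small subunit have close paralogs, so such reads could be split or lost. Takanari SAM library 18 was left out by the submitters, per the labels, because its reads did not align (36 libraries labelled). No deposited column was unused (0).

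The 45 members and all lists were chosen with earlier results of these data known. None of the 55801 identifiers matched the reference gene table (0 matched), so the lists of other chlorophyll genes and of meristem and leaf markers were not used. Named loci were the 4 members of highest mean CPM, members called in the slope, AM minus SAM and cultivar contrasts, the highest member of each of 8 role subgroups (assigned from general knowledge, not checked against an annotation and used only to choose which loci to name), and members called in an interaction or in a single tissue. Any others are said to be chosen after their values were seen.

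CPM were computed here from the deposited counts, with library totals over all loci and TMM factors from the loci past the filter. The tests used library sizes over the tested loci. Differences were tested with edgeR 4.0.16 (R 4.3.3), quasi-likelihood F test, robust dispersion, 1 mean for each of 12 groups, filterByExpr (minimum count 10, 6943 loci) and Benjamini-Hochberg adjustment at 0.05. The fit of every locus with a count (24225) was an alternative to the filter. An SE came from the fitted means, or, where a group of the contrast was at 0, from the test statistic. An SE from the fitted means is a separate approximation, so its ratio to the difference need not match the p of the F test. The contrast of AM2 to AM4 with AM1 and AM5 was added after the data were seen. The test was run on simulated data with known slopes. Poisson intervals, exact intervals of count ratios and limits for loci without a count cover counting error only. Intervals of fitted differences and slopes were built from the SE of the fit, so they are not limited to counting error. The common biological coefficient of variation was 24.8%.

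In 34 of 34 pairs of libraries within a group, counts differed beyond sampling noise (chi-square over degrees of freedom 1.55 or more), so none was merged. Alternatives were DESeq2 size factors, library totals, DESeq2 1.42.0, limma 3.58.1 with the set as a random effect, a replicate block, thinned counts, no AM5, members left out of the scaling, and each library left out.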

Additional observations from a re-analysis of the deposited data

Results flagged for a closer look

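Of 54 groups of libraries examined at the summed level and at 8 loci, 5 held a library far from the others of its tissue. Chance gives about 1 in 20 for continuous values, a rate that does not apply where 1 library has a single count and the rest are at 0, as in 3 of the 5. LOC_Os09g17740 had 29.6 CPM in NIL-MP3 AM3 replicate 3, low beside 52.7 to 65.2 CPM in the other AM3 libraries. LOC_Os12g19381 had 66.1 CPM in Takanari AM4 replicate 2, beside 5.58 to 18.4 CPM in the other AM4 libraries. The same locus had 8.996 CPM in NIL-MP3 AM1 replicate 17 and 9.26 CPM in Takanari SAM replicate 6, each a single count where the other libraries of the tissue were at 0. LOC_Os01g52240 had 6.57 CPM in NIL-MP3 AM5 replicate 13, also a single count beside 0 in the others. The summed level of Takanari AM2 replicate 4 (996 CPM) did not meet this criterion, because the other AM2 libraries were themselves spread from 374 to 648 CPM.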

How the results depend on the processing

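Among loci past the filter, 835 of 856 counts of called members under other settings were 0. The 856 include contrasts where 0% of all loci were called in the main fit, such as NIL-MP3 minus Takanari in each single tissue. With every locus tested the count was 2 for the slope, 1 for AM5 minus AM1, 1 for AM5 minus SAM, 1 for the slope within Takanari and 2 for AM2 to AM4 against AM1 and AM5, and without the AM5 libraries it was 1 for the slope. The contrast of AM2 to AM4 with AM1 and AM5 gave 1 with library totals only (LOC_Os04g33830, edgeR adjusted p = 0.0467) and 1 with a replicate block for the set (0.0245). Leaving out 1 library gave 0 to 2 for that contrast, and the count was above 0 in 16 of 35 such fits. It was 0 to 1 for AM3 and for AM4 minus SAM (1 without NIL-MP3 SAM replicate 18), and 0 for the others. The share of all loci called in these fits was not recorded. With every locus tested, the slope gave 2 calls, against 1 with DESeq2 size factors, 1 by DESeq2's Wald test, 1 with thinned counts and 0 to 2 with 1 library left out. LOC_Os12g19381 was called in all 6 other settings, and LOC_Os01g52240 in 2 of 6. AM2 to AM4 against AM1 and AM5 gave 2 calls, against 0 by DESeq2's Wald test, 0 with thinned counts, 4 by limma with a random effect for the set, and 0 to 2 with 1 library left out (0 without Takanari AM5 replicate 13 or Takanari AM1 replicate 17). These fits with 1 library left out kept the dispersion trend of all libraries. For these other settings with every locus tested, too, the share of all loci called was not recorded, so the counts of members cannot be set beside it. The cause of the changes in count was not tested. Library numbers did not pair the cultivars (r from -0.0811 to 0.123 over 17 pairs), whereas libraries of a set had a median r of 0.144 (85 pairs), and apart from the count above the replicate block changed no call. Summed levels without the 4 highest members were, by construction, lower, 259 and 279 CPM in AM1 and AM5, 366 and 349 CPM in AM3 and AM4 and 285 CPM in SAM. The ratio of AM2 to AM4 over AM1 and AM5 stayed from 1.36 to 1.44 under 4 other settings and from 1.31 to 1.42 with 1 library left out. Without Takanari AM2 replicate 4 the order of the summed means turned for the cultivars (NIL-MP3 479 and Takanari 468 CPM) and for AM2 and AM4 (503 and 527 CPM). Depth limits single loci: 31 members had 10 to 99 counts over 35 libraries.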
